A study of Mus musculus with 18 samples.

Results

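The genes described here are 40 genes of the mammalian cell cycle, out of 45706 genes counted in each kidney. They were chosen by name from textbook roles, with earlier results of these data known. They fall into 20 genes that act from G1 to the start of DNA synthesis (G1/S) and 20 genes that act in G2 and mitosis (G2/M). All 40 symbols matched 1 gene each. Whole kidney RNA was sequenced from 18 male mice on a C57BL/6 background, in a *Cxcl12* cohort (5 KO, 3 controls) and a *Myc* cohort (5 KO, 5 controls). KO mice carried floxed *Cxcl12* or floxed *Myc* alleles with Pax8rtTA and TetOCre, which excise the floxed gene in renal tubule cells under doxycycline. The controls, named WT in the sample titles, carried the same floxed alleles and Pax8rtTA but no Cre, and they also received doxycycline. Doxycycline was given for 2 weeks from an age of 6 to 8 weeks and washed out for 1 week. Every kidney was taken after bilateral ischemia of 22.5 min and 12 h of reperfusion, at 10 to 12 weeks of age. No uninjured kidney was analysed here, so the values describe injured kidneys only. The Cre driver acts in tubule cells, while the RNA comes from all cells of the kidney, and the other cells keep the floxed gene.

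The D cyclins with Cdk4 and Cdk6, and then the E cyclins with Cdk2, phosphorylate the retinoblastoma protein and free E2F factors, which switch on the genes of DNA replication. Cdc6 and Cdt1 load the Mcm helicase onto origins, the GINS complex activates it, and Pcna clamps the polymerase to the template. Later in the cycle Foxm1 and other factors switch on the G2/M genes, which encode the mitotic cyclins and Cdk1, chromosome and spindle proteins, checkpoint kinases and the ubiquitin machinery of mitotic exit. Tubule cells of the adult kidney are mostly quiescent and re-enter the cycle after ischemic injury.

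Each kidney had 12918220 to 29749500 reads on genes. In 6 kidneys (*Cxcl12* KO 1 and 2, *Myc* KO 3 and 5, *Myc* control 1 and 3) 3.69% to 4.63% of the reads were unmapped, against 5.28% to 6.48% in the other 12. Levels are given as normalised CPM, counts divided by the library size after TMM scaling over all 18 kidneys. The deleted genes followed the labels: in its own cohort *Myc*, a transcription factor, was at 31.0 ± 3.95 CPM after deletion (SD, n = 5) against 94.9 ± 14.5 CPM (SD, n = 5). *Cxcl12*, a chemokine, was at 32.3 ± 6.07 CPM after deletion (SD, n = 5) against 53.5 ± 7.92 CPM (SD, n = 3) in the controls of that cohort. Tubule, podocyte and endothelial markers were present in every kidney. The 5 lymphocyte markers summed to at most 1.25 CPM in any kidney of the *Cxcl12* cohort and at most 1.01 CPM in any kidney of the *Myc* cohort.

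The G1/S genes were expressed at higher levels than the G2/M genes in these kidneys. On the scale of CPM per kb of exon, averaged over the 18 kidneys, the median level was 3.33 over the 20 G1/S genes and 0.385 over the 20 G2/M genes. *Ccnd1*, the cyclin that responds to growth signals, was highest at 30.8, followed by its kinase partner *Cdk4* at 23.8 and the sliding clamp *Pcna* at 14.3. *Cdc6*, the origin loading factor, was the lowest G1/S gene at 0.155. The G2/M genes lay between 0.0611 for *Ccnb1*, the main mitotic cyclin, and 0.823 for *Cdc20*, an activator of the anaphase-promoting complex. *Ccnb1* had 1 to 22 reads per kidney and *Bub1*, a spindle checkpoint kinase, 1 to 24. After the filter on low counts, 38 of the 40 genes were tested in the *Cxcl12* cohort (without *Ccnb1* and *Bub1*) and 37 in the *Myc* cohort (also without *Aurkb*). The 20 G2/M genes together gave 372 to 1496 reads per kidney, and standard errors of their log2 fold changes ranged from 0.26 to 0.58 in the *Cxcl12* cohort and from 0.21 to 0.41 in the *Myc* cohort. *Ccnd3*, *Pcna*, *Ccnb1* and *Ccnb2* have processed pseudogenes in the annotation, which may take some of their reads. The pseudogene of *Ccnb2* had 14 to 46 reads per kidney, where *Ccnb2* itself had 4 to 48. Pseudogenes of the other genes had at most 16 reads.

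The promoters show how the classes differ in sequence. RefSeq promoters (GRCm38.p6, 250 bases before to 50 after the start) were given for 29 of the 40 genes, as 32 promoters. No promoter was given for the G1/S genes *Ccnd1*, *Ccnd2*, *Ccne2*, *Mcm4*, *Gins1* and *Gins2*. The same holds for the G2/M genes *Ccna2*, *Aurkb*, *Foxm1*, *Kif20a* and *Tpx2*, so their motifs are not known here. Motifs were searched on both strands. The CCAAT box (CCAAT) was found in 15 of 16 G2/M promoters (93.8%) and 9 of 16 G1/S promoters (56.2%), against 37.4% of all 32851 promoters. The CHR element (TTTGAA), bound by the cell cycle repressor DREAM and its activating partners, was found in 13 of 16 G2/M promoters (81.2%) and in 1 of 16 G1/S promoters (6.25%), against 17.9% of all promoters. An E2F site (TTTCCCGC, TTTCGCGC, TTTGCCGC or TTTGGCGC) was found in 7 of 16 G1/S promoters (43.8%) and 1 of 16 G2/M promoters (6.25%), against 2.26% of all. The E-box (CACGTG), the sequence that Myc binds with its partner Max, was found in 2 G1/S promoters, those of *Cdk4* and *Cdk6*, and in 0 G2/M promoters, against 7.15% of all promoters. The *Cdk4* promoter holds 4 E-boxes, beginning 172, 118, 98 and 11 bases before the start, and 8 promoters of 6 genes among the 32851 hold 4 or more. Its sequence is shown because *Cdk4* was the called gene. The others were chosen after their values were seen, *Mcm7* as a replication gene with 2 E2F sites in the promoter printed (its second RefSeq promoter, chr5:138171217-138171516, holds 0 E2F sites and 1 CCAAT box), and *Top2a* and *Ccnb2* as G2/M genes with CCAAT and CHR motifs. Capitals mark the motifs named above, read 5′ to 3′ on the gene's strand (*Cdk4* chr10:127063285-127063584, plus strand, *Mcm7* chr5:138171834-138172133, minus strand, *Top2a* chr11:99024140-99024439, minus strand, and *Ccnb2* chr9:70421505-70421804, minus strand). The second E2F site of *Mcm7* shares 1 base with the CCAAT box that follows it. A match is a description of letters, not a site shown to be bound.
Cdk4: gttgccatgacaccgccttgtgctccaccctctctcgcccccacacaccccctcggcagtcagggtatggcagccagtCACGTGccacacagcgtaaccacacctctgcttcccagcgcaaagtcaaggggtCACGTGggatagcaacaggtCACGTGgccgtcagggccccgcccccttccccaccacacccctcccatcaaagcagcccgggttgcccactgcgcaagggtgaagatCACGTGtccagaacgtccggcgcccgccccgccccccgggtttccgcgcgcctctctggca
Mcm7: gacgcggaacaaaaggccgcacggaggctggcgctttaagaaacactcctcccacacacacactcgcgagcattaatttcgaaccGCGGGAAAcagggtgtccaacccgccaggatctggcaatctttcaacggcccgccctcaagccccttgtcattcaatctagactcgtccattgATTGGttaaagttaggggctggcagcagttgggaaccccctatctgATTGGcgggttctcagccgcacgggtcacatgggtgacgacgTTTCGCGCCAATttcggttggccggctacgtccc
Top2a: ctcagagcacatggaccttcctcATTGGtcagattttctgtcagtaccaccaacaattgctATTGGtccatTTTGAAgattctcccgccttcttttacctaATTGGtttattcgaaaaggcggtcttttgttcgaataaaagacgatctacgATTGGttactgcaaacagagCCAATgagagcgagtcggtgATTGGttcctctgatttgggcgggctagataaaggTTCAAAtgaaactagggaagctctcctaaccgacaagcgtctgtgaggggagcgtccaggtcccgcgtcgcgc
Ccnb2: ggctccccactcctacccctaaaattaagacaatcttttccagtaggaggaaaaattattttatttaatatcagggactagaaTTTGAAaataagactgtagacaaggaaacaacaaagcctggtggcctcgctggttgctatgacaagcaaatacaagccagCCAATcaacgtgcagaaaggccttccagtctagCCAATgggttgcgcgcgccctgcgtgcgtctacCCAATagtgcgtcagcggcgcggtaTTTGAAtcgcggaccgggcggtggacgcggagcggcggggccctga

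In *Myc* KO kidneys *Cdk4* fell, and no other cell cycle gene passed the test. By the quasi-likelihood test of edgeR, adjusted over all genes, 1 of the 37 tested genes was called, while 1.65% of all 14936 genes tested were called and 1.29% were called lower. At an unadjusted p under 0.05 there were 6 of 37 (16.2%), against 21.9% of all genes. *Cdk4* (ENSMUSG00000006728, chromosome 10, 127063534 to 127067920, plus strand, GRCm38) encodes the kinase partner of the D cyclins. It was at 68.9, 61.5, 61.6, 63.9 and 60.9 CPM in *Myc* KO kidneys 1 to 5 and at 77.9, 78.4, 72.4, 92.4 and 86.0 CPM in *Myc* control kidneys 1 to 5. The groups did not overlap, with every KO kidney under the lowest control. *Cdk4* fell by 0.36 on the log2 scale (standard error, SE, 0.08, adjusted p = 0.039 by edgeR's test, n = 5 and 5). The call was lost with the replicate number as a block (-0.36, edgeR adjusted p = 0.096) and without the filter on low counts (-0.37, edgeR adjusted p = 0.051). Among the kidneys with at least 5% unmapped reads (3 KO, 3 control) it was -0.40 (edgeR adjusted p = 0.070), and among those with less (2 KO, 2 control) -0.29 (edgeR adjusted p = 0.58). Without 1 kidney at a time the log2 fold change was -0.40 to -0.31 and the edgeR adjusted p 0.021 to 0.12, under 0.05 in 3 of 10 cases (without *Myc* KO 1, *Myc* control 1 or *Myc* control 3). The 3′ end of *Cdk4* overlaps *Tspan31* on the opposite strand by 641 bases, and reads there cannot be told apart in counts that ignore the strand. The same limit holds for other genes described here. The span of *Prc1* overlaps *Rccd1* by 21810 bases, *Ccne2* overlaps *Ints8* by 5622, *Kif20a* overlaps *Cdc23* by 2327 and *Mcm7* overlaps *Ap4m1* by 421. The summed endothelial, podocyte and leukocyte markers had higher means in *Myc* KO than in *Myc* control kidneys, but edgeR called 0 of these markers. The 4 endothelial markers summed to 551 to 770 CPM in the KO and 395 to 671 CPM in the control kidneys, with all 4 log2 fold changes above 0 (*Cdh5* 0.57, edgeR adjusted p = 0.12), the 3 podocyte markers to 481 to 597 and 314 to 542 CPM, and the 6 leukocyte markers to 112 to 164 and 73.1 to 149 CPM. Of the leukocyte markers tested, *Adgre1* alone had a log2 fold change below 0 (-0.32, edgeR adjusted p = 0.22). The 3 injured tubule markers summed to 2787 to 3262 and 2543 to 3308 CPM. Among them *Havcr1* had a log2 fold change of -1.32 (edgeR adjusted p = 0.12), *Lcn2* of 0.39 (edgeR adjusted p = 0.27) and *Krt20* of -0.02. The groups overlapped for each sum, and the part of these markers in the cell cycle values was not tested. In whole kidney RNA, fewer expressing cells and less RNA per cell cannot be told apart, here and below.

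The other D cyclin genes and *Cdk6* did not pass the test in *Myc* KO kidneys and did not point one way. *Ccnd2*, a second D cyclin, was at 37.5, 39.7, 43.2, 46.5 and 46.0 CPM in the KO kidneys and at 35.4, 36.2, 40.6, 28.9 and 33.2 CPM in the controls. All 5 KO kidneys were above the control mean, but *Myc* control 3 was above *Myc* KO 1 and 2. On the log2 scale the difference was 0.29 (SE 0.10, p adjusted by edgeR 0.13). *Cdk6*, the second D cyclin kinase, was at 83.3, 80.0, 79.3, 75.9 and 83.7 CPM in the KO kidneys and at 113, 97.8, 90.2, 96.9 and 74.6 CPM in the controls. The KO kidneys lay below 4 of 5 controls and above *Myc* control 5, at a log2 fold change of -0.23 ± 0.10 (SE, edgeR adjusted p = 0.20). *Ccnd1* (-0.06 ± 0.09, log2 fold change ± SE) and *Ccnd3* (0.16 ± 0.10) overlapped between the groups. *Ccnd3* was at 59.1, 55.8, 57.4, 59.0 and 46.9 CPM in the KO kidneys and at 44.1, 48.0, 55.3, 42.3 and 58.9 CPM in the controls. *Ccnd1* was at 132, 131, 144, 145 and 138 CPM in the KO kidneys and at 128, 154, 159, 124 and 154 CPM in the controls. The 5 genes together summed to 368 to 390 CPM in the KO and 385 to 418 CPM in the control kidneys. The groups overlapped, with *Myc* KO 3 and 4 above *Myc* control 4.

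Of the 11 genes of replication licensing and the fork, 0 passed edgeR's test in *Myc* KO kidneys (2 at an unadjusted p under 0.05), and 10 of 11 had a log2 fold change below 0, where 50.1% of all genes tested were below 0. *Mcm7*, a helicase subunit, was at 13.3, 13.6, 10.4, 10.9 and 12.2 CPM in the KO kidneys and at 14.6, 14.4, 15.1, 16.4 and 15.1 CPM in the controls. The groups did not overlap, at a log2 fold change of -0.32 ± 0.10 (SE, adjusted p = 0.11 by edgeR and 0.039 by DESeq2, which called 7.57% of all genes). *Mcm2*, another subunit of the same helicase, was at 16.2, 15.9, 18.9, 17.9 and 17.4 CPM in the KO kidneys and at 17.4, 21.0, 22.3, 23.8 and 23.7 CPM in the controls. *Myc* control 1 lay within the KO range, at a log2 fold change of -0.32 ± 0.10 (SE, adjusted p = 0.11 by edgeR and 0.0497 by DESeq2). Without that control *Mcm2* was at -0.39 (edgeR adjusted p = 0.048). Over the tested genes, *Cdk4* and *Mcm7* were the 2 of 37 (5.41%) whose KO kidneys were all under the lowest control, against 3.92% of all genes, and 0 of 37 had every KO kidney above the highest control, against 2.05%. The remaining licensing genes did not pass the test. The helicase subunits *Mcm3*, *Mcm4*, *Mcm5* and *Mcm6* had log2 fold changes of -0.10 ± 0.16, 0.01 ± 0.10, -0.21 ± 0.16 and -0.16 ± 0.12 (SE). The loading factors *Cdc6* and *Cdt1* were at -0.16 ± 0.26 and -0.20 ± 0.13 (SE), the GINS subunits *Gins1* and *Gins2* at -0.26 ± 0.19 and -0.17 ± 0.15 (SE), and *Pcna* at -0.11 ± 0.08 (SE). The summed level of the 11 genes was 141 to 151 CPM in the KO kidneys and 135 to 183 CPM in the controls. Only *Myc* control 1 lay below the KO kidneys, and the other 4 controls, at 165 to 183 CPM, lay above them. *Myc* control 1 was 1 of the 6 kidneys with under 5% unmapped reads, and the part of that difference in the result was not tested.

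*Cdk2*, the E cyclins and *E2f1* showed no called change in *Myc* KO kidneys (0 of 4 by edgeR, 0 also at an unadjusted p under 0.05). *Cdk2*, the kinase partner of the E cyclins, had a log2 fold change of -0.01 (SE 0.08), while the E cyclins *Ccne1* and *Ccne2* were at 0.17 (SE 0.25) and 0.00 (SE 0.17). *E2f1*, a transcription factor of the replication genes, was at 3.40, 2.25, 1.42, 2.30 and 1.66 CPM in the KO kidneys and at 2.54, 2.16, 1.96, 5.60 and 2.31 CPM in the controls. *Myc* control 4 alone was far above the others, and the log2 fold change was -0.41 with it (SE 0.32) and -0.05 without it.

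**Figure D1:**
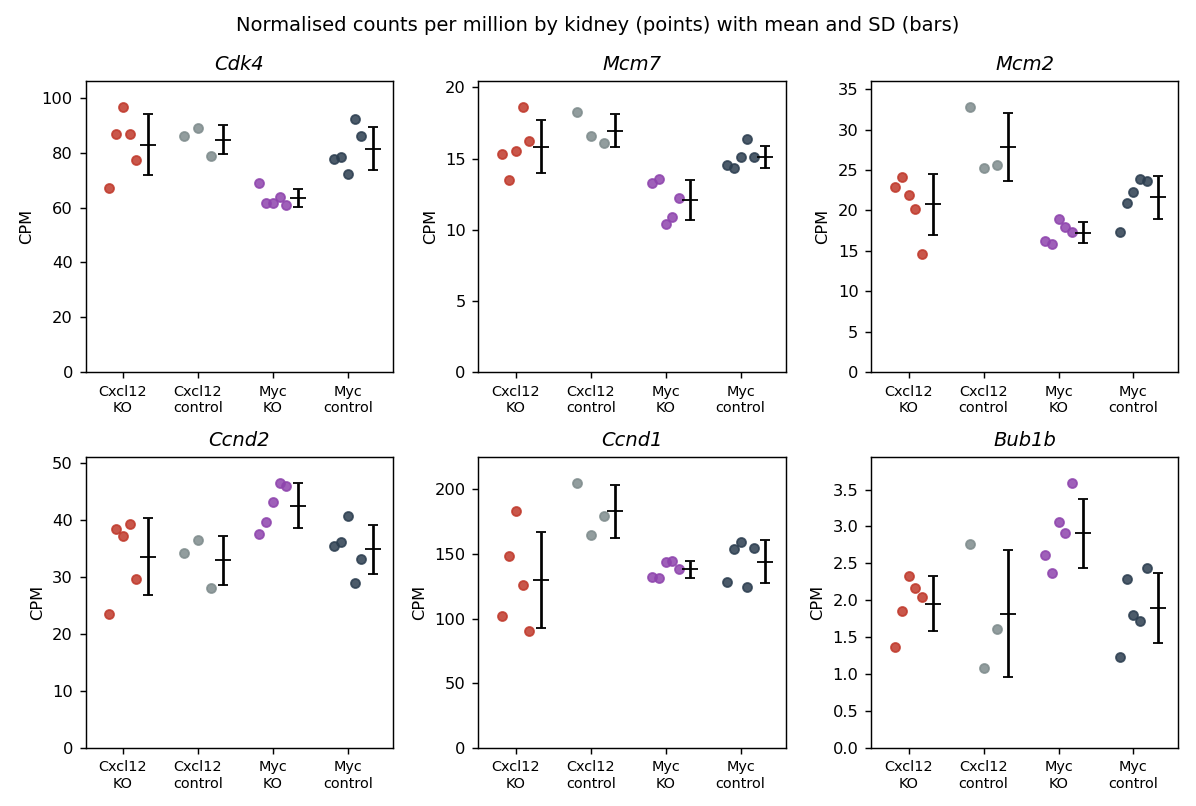
Normalised CPM of 6 cell cycle genes in each kidney (points, from left to right replicate 1 upward) by genotype group, with the mean and SD beside the points and axes that start at 0. The 5 *Myc* KO kidneys lie at 60.9 to 68.9 CPM of *Cdk4*, below all 5 *Myc* controls at 72.4 to 92.4 CPM.

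None of the G2/M genes was called in *Myc* KO kidneys (0 of 17 tested by edgeR, 1 at an unadjusted p under 0.05, 0 by DESeq2). The median log2 fold change was -0.16 over the 17 tested and -0.17 over all 20 fitted without the filter on low counts, with 15 of the 20 below 0. *Bub1b*, a spindle checkpoint protein, was the gene with the smallest p. It was at 2.61, 2.37, 3.06, 2.92 and 3.59 CPM in the KO kidneys and at 1.23, 2.29, 1.79, 1.72 and 2.43 CPM in the controls. All 5 KO kidneys were above 4 of 5 controls, at a log2 fold change of 0.64 ± 0.21 (SE, edgeR adjusted p = 0.12). *Cdk1*, the mitotic kinase, was at 1.19, 1.52, 0.82, 0.81 and 1.12 CPM in the KO kidneys and at 0.81, 1.25, 1.66, 3.94 and 1.54 CPM in the controls. *Myc* control 4 was again far above the rest, and *Cdk1* had a log2 fold change of -0.73 ± 0.39 (SE, edgeR adjusted p = 0.29) with it and -0.27 without it. *Tpx2*, a spindle assembly factor, was at 1.27, 1.46, 1.74, 0.68 and 1.5 CPM in the KO kidneys and at 1.73, 1.77, 1.93, 2.46 and 1.48 CPM in the controls. The groups overlapped, at a log2 fold change of -0.47 ± 0.25 (SE, edgeR adjusted p = 0.28).

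The other G2/M genes had log2 fold changes in *Myc* KO kidneys on both sides of 0, each with overlapping groups. The mitotic cyclins *Ccna2* and *Ccnb2* were at -0.16 ± 0.23 and -0.52 ± 0.41 (SE). Among chromosome and kinetochore proteins, *Top2a* was at -0.41 ± 0.30, *Mki67* at -0.17 ± 0.27 and the centromeric histone *Cenpa* at 0.32 ± 0.24 (SE). Among mitotic kinases and their partners, *Aurka* was at -0.21 ± 0.23, *Plk1* at 0.00 ± 0.31 and *Birc5*, a subunit of the chromosomal passenger complex, at 0.25 ± 0.37 (SE). The spindle motors *Kif11* and *Kif20a* were at -0.25 ± 0.28 and -0.15 ± 0.22, and *Prc1* at -0.36 ± 0.26 (SE). *Cdc20* and *Ube2c*, which drive mitotic exit through ubiquitination, were at -0.15 ± 0.29 and -0.04 ± 0.30, and *Foxm1* at 0.20 ± 0.23 (SE). The 3 genes that the filter left out had few reads: *Ccnb1* was at 0.056 to 0.229 CPM in the KO and 0.102 to 0.393 CPM in the control kidneys, *Bub1* at 0.169 to 0.475 and 0.197 to 0.406 CPM, and *Aurkb* at 0.347 to 0.559 and 0.385 to 2.22 CPM.

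*Myc* control 4 held the highest value of the *Myc* cohort for 12 of the 20 G2/M genes, while 21.5% of all genes tested were highest in it. The 12 include *Aurkb*, and the 20 include *Aurkb*, *Ccnb1* and *Bub1*, which the filter left out of the genes tested. The 20 genes summed to 24.4, 28.2, 37.3, 49.3 and 33.5 CPM in *Myc* controls 1 to 5 and to 29.4, 33.4, 30.3, 25.5 and 37.1 CPM in *Myc* KO kidneys 1 to 5. Apart from control 4 the groups overlapped. The excess of *Myc* control 4 over the next kidney was largest for *Aurkb* (factor 3.28) and *Cdk1* (factor 2.38) and had a median factor of 1.12 over the 20 genes, with *Mki67*, *Foxm1* and *Plk1* among the 8 genes that were higher in another kidney. Without *Myc* control 4 the median log2 fold change of the tested G2/M genes was -0.06, with 8 above and 9 below 0.

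**Figure D2:**
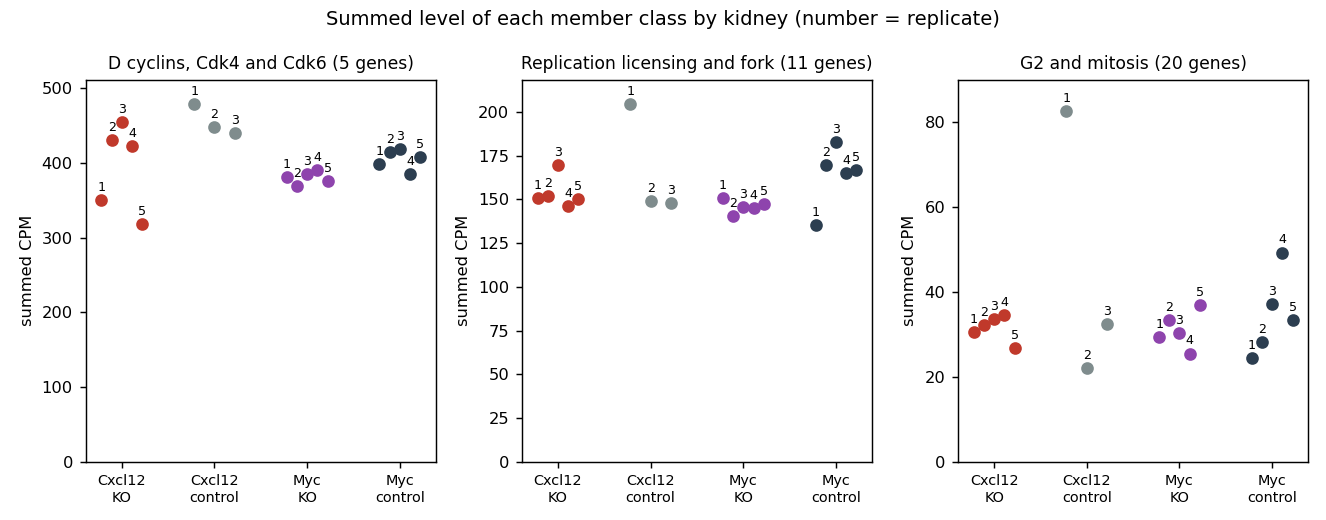
Summed CPM of 3 classes of cell cycle genes in each kidney (point, labelled with its replicate number) by genotype group, on axes that start at 0. The G2 and mitosis genes sum to 82.7 CPM in *Cxcl12* control 1 and to at most 49.3 CPM in the other 17 kidneys.

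In the *Cxcl12* cohort no cell cycle gene was called, and the largest difference was between 1 control kidney and all the others. By edgeR's test 0 of 38 genes passed. Of all 15154 genes tested 0% passed, so the deleted *Cxcl12* did not pass either. An unadjusted p under 0.05 was found for 3 of 38 (7.89%), against 13.0% of all genes. DESeq2, which called 2.33% of all genes, and limma-voom also called 0 of the 38. The 20 G2/M genes were all at their highest in *Cxcl12* control 1 among the 8 kidneys of the cohort, while 12.7% of all genes tested were highest in that kidney. Summed over the 20 genes, the level was 82.7 CPM in *Cxcl12* control 1, 22.2 and 32.6 CPM in *Cxcl12* controls 2 and 3, and 30.5, 32.2, 33.6, 34.5 and 26.7 CPM in *Cxcl12* KO kidneys 1 to 5. The 5 KO kidneys lay between or close to the other controls. *Cxcl12* control 1 therefore stood apart from every kidney of either genotype, and log2 fold changes that it moved are also given without it.

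The higher level in *Cxcl12* control 1 covered cyclins, chromosome proteins and spindle proteins alike. *Mki67*, which coats mitotic chromosomes and serves as a proliferation marker, was at 13.1 CPM in *Cxcl12* control 1, at 1.99 and 2.93 CPM in controls 2 and 3, and at 2.99, 4.20, 3.97, 3.44 and 2.29 CPM in the KO kidneys. *Top2a*, the topoisomerase that untangles chromosomes, was at 11.8 CPM in *Cxcl12* control 1, at 1.45 and 2.93 CPM in controls 2 and 3, and at 3.17, 2.50, 3.11, 4.00 and 1.80 CPM in the KO kidneys. *Prc1*, a bundler of spindle midzone microtubules, was at 6.08 CPM in *Cxcl12* control 1, at 1.62 and 3.59 CPM in controls 2 and 3, and at 2.55, 2.50, 2.10, 2.72 and 2.11 CPM in the KO kidneys. These genes were picked after their values were seen. For *Mki67* and *Top2a* most KO kidneys lay above controls 2 and 3, reaching 4.20 and 4.00 CPM where control 3 was at 2.93 CPM for both. For *Prc1* the KO kidneys lay within the range of controls 2 and 3. *Cdk1* was at 4.31 CPM in *Cxcl12* control 1, at 0.86 and 1.67 CPM in controls 2 and 3, and at 1.25 to 1.98 CPM in the KO kidneys. *Tpx2* was at 4.31 CPM in *Cxcl12* control 1, at 1.51 and 1.85 CPM in controls 2 and 3, and at 1.67 to 2.72 CPM in the KO kidneys. *Bub1b* was at 2.77 CPM in *Cxcl12* control 1, at 1.08 and 1.61 CPM in controls 2 and 3, and at 1.36 to 2.33 CPM in the KO kidneys, the smallest gap of these genes.

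The other G2/M genes were also highest in this kidney. The mitotic cyclin *Ccna2* was at 4.15 CPM in *Cxcl12* control 1 and at 1.40 to 2.24 CPM in the other 7 kidneys of the cohort, and *Ccnb2* at 2.66 CPM against 0.417 to 1.495 CPM. The kinase *Aurka* was at 4.31 CPM against 1.28 to 2.00 CPM, *Aurkb* at 1.60 CPM against 0.545 to 1.28 CPM, and *Plk1*, a kinase of mitotic entry and spindle poles, at 2.77 CPM against 0.700 to 1.28 CPM. *Birc5* was at 2.27 CPM against 0.323 to 1.08 CPM, and *Cenpa* at 3.595 CPM against 1.32 to 2.64 CPM. The margin over the next kidney was wide for *Aurka* and *Plk1* and narrow for *Aurkb* and *Cenpa*. The motors *Kif11* and *Kif20a* were at 3.87 CPM against 1.054 to 1.89 CPM and at 3.04 CPM against 1.08 to 2.21 CPM. *Cdc20* was at 3.04 CPM against 0.861 to 1.86 CPM, and *Ube2c* at 2.27 CPM against 0.161 to 0.837 CPM. *Foxm1* was at 4.31 CPM against 1.83 to 3.42 CPM. The rarest genes, *Ccnb1* and *Bub1*, were at 1.22 CPM against 0.054 to 0.389 CPM and at 1.33 CPM against 0.054 to 0.359 CPM, which rests on at most 24 reads in a kidney. Over the 20 genes, *Cxcl12* control 1 was above the next kidney by a factor of 1.19 (*Bub1b*) to 3.7 (*Bub1*), with a median factor of 1.96.

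With all 8 kidneys, 17 of the 18 tested G2/M genes had a log2 fold change below 0 in *Cxcl12* KO kidneys, against 49.8% of all genes, with a median of -0.58. Fitted without the filter on low counts, all 20 had a median of -0.59 with 19 below 0. Without *Cxcl12* control 1 the median of the 18 was 0.18, with 14 above and 4 below 0. *Mki67* had a log2 fold change of -0.83 ± 0.50 (SE, edgeR adjusted p = 0.51) with that kidney and 0.46 without it. *Top2a* was at -0.89 ± 0.53 (SE, edgeR adjusted p = 0.50) with it and 0.41 without it. *Cdk1* moved in the same way from -0.55 (SE 0.42) to 0.30, and *Tpx2* from -0.23 (SE 0.33) to 0.38. *Prc1* kept a value below 0, at -0.65 (SE 0.34) with and -0.11 without the kidney, and *Bub1b* was at 0.09 (SE 0.31) with and 0.52 without it. The rest of the tested G2/M genes had log2 fold changes between -0.89 (*Ccnb2*, SE 0.47) and -0.02 (*Cenpa*, SE 0.32) with all 8 kidneys. Without *Cxcl12* control 1 these 12 genes lay between -0.30 (*Ccnb2*) and 0.49 (*Cenpa*), with *Ccna2* and *Aurka* also below 0 and the other 9 above it, such as *Cdc20* at 0.41, *Ube2c* at 0.33 and *Plk1* at 0.24. The direction of most G2/M genes in the *Cxcl12* comparison was thus set by 1 of its 3 control kidneys.

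**Figure D3:**
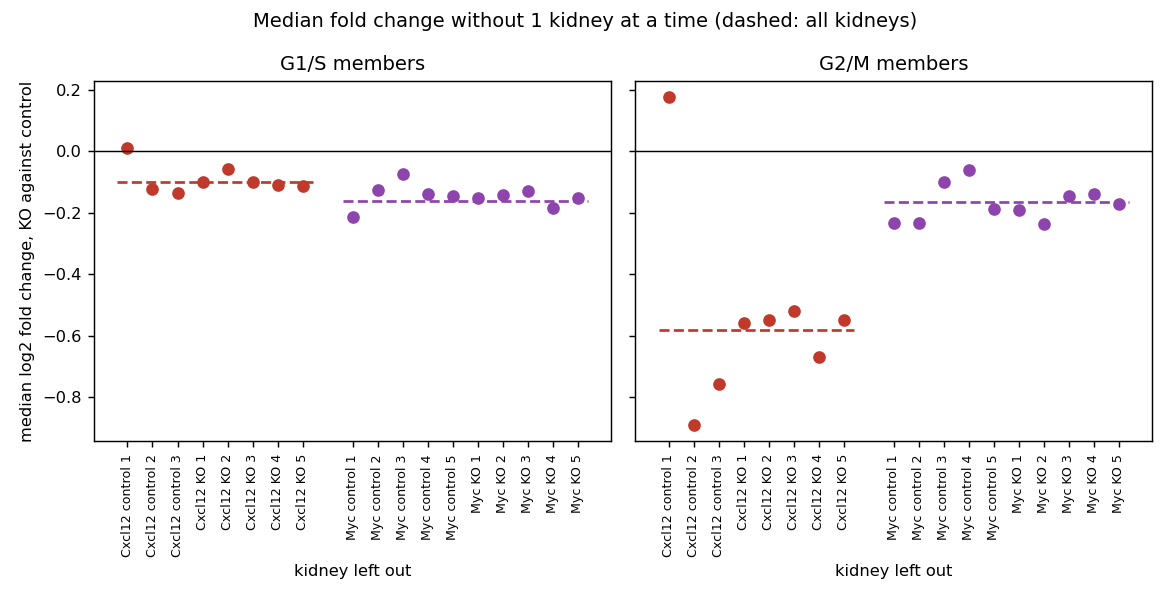
Median log2 fold change of the tested G1/S genes (left) and G2/M genes (right) in KO against control kidneys after leaving out the kidney named on the x axis, for the *Cxcl12* cohort (red) and the *Myc* cohort (purple), with dashed lines for all kidneys. The G2/M median of the *Cxcl12* cohort moves from -0.58 to 0.18 without *Cxcl12* control 1 and stays between -0.89 and -0.52 without any other kidney.

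*Cxcl12* control 1 did not stand apart in depth, with 17235048 reads on genes and 5.28% unmapped reads against 16789958 to 17733178 and 5.42% to 5.77% in controls 2 and 3. Its 6 leukocyte markers summed to 51.6 CPM, against 50.8 CPM in each of the other controls and 52.7 to 98.8 CPM in the KO kidneys. Its 5 lymphocyte markers summed to 0.498 CPM, within the 0.359 to 1.02 CPM of the other controls. Its 4 erythroid precursor markers summed to 3.43 CPM, between the 2.85 and 3.71 CPM of the other controls, with 2 of the 4 at 0. The 4 adrenal cortex markers summed to 6.80 CPM in it, the highest of the 8 kidneys, against 3.83 to 6.55 CPM in the others, with 2 of the 4 at 0. The leukocyte, lymphocyte and erythroid sums were higher in another kidney. The 3 markers of injured tubules (*Havcr1*, *Lcn2* and *Krt20*) summed to 1571 CPM in it, the lowest of the 8 kidneys, against 1912 and 2368 CPM in the other controls and 2536 to 3051 CPM in the KO kidneys, and the part of this in the result was not tested.

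The G1/S genes took part in this to a smaller extent. *Cxcl12* control 1 held the highest value of its cohort for 9 of the 20 G1/S genes, while 12.7% of all genes tested were highest in it. The 11 licensing and fork genes summed to 205 CPM in *Cxcl12* control 1, 149 and 148 CPM in the other controls and 146 to 170 CPM in the KO kidneys. *E2f1* was at 5.97, 3.50 and 2.99 CPM in *Cxcl12* controls 1 to 3 and at 2.55, 2.35, 3.11, 1.89 and 2.29 CPM in the KO kidneys. *Cxcl12* KO 3 reached above control 3, at a log2 fold change of -0.78 ± 0.26 (SE, edgeR adjusted p = 0.25), or -0.42 without control 1. *Mcm2* was at 32.8, 25.2 and 25.7 CPM in the controls and at 22.9, 24.1, 21.9, 20.1 and 14.6 CPM in the KO kidneys. It was the only tested cell cycle gene (1 of 38, 2.63%) whose KO kidneys were all under the lowest control, against 4.72% of all genes, and 0 of 38 had every KO kidney above the highest control, against 4.96%. Its log2 fold change was -0.43 ± 0.16 (SE, edgeR adjusted p = 0.30), or -0.29 without control 1.

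Among the D cyclins, *Ccnd1* was at 205, 164 and 180 CPM in *Cxcl12* controls 1 to 3 and at 102, 149, 183, 126 and 90.0 CPM in the KO kidneys. *Cxcl12* KO 3 lay inside the control range and the other 4 KO kidneys below it. *Ccnd1* thus had a log2 fold change of -0.50 ± 0.20 (SE, edgeR adjusted p = 0.33). *Ccnd3* was at 60.6, 56.8 and 55.1 CPM in the controls and at 45.6, 45.0, 60.8, 49.9 and 44.2 CPM in the KO kidneys. Here *Cxcl12* KO 3 lay just above the highest control and the other 4 KO kidneys below the lowest. The log2 fold change of *Ccnd3* was -0.23 ± 0.11 (SE, edgeR adjusted p = 0.40). *Cdk4* overlapped, at 67.2 to 96.5 CPM in the KO kidneys and 78.9 to 89.1 CPM in the controls (log2 fold change -0.03, standard error 0.11). *Ccnd2* at 0.02, *Cdk6* at 0.04 and *Mcm7* at -0.11, with standard errors of 0.17, 0.15 and 0.12, also overlapped between the groups. Among the remaining helicase subunits, *Mcm5*, picked after its values were seen, was at 19.4, 8.13 and 9.80 CPM in the controls. In the KO kidneys *Mcm5* was at 7.13 to 10.8 CPM, so that control 1 alone stood above the rest. *Mcm5* had a log2 fold change of -0.55 (SE 0.26) and *Mcm3* of -0.44 (SE 0.23), while *Mcm4* and *Mcm6* were at -0.03 (SE 0.18) and 0.06 (SE 0.15). *Cdc6* and *Cdt1* were at -0.23 ± 0.40 and 0.02 ± 0.16, *Gins1* and *Gins2* at -0.09 ± 0.20 and -0.21 ± 0.25, and *Pcna* at 0.05 ± 0.11 (SE). Without *Cxcl12* control 1, *Mcm5* was at -0.07, *Mcm3* at -0.11, *Mcm4* at 0.26, *Mcm6* at 0.25, *Cdc6* at 0.16, *Gins2* at 0.14 and *Pcna* at 0.14. None of these genes passed the test, nor did *Ccne1* (-0.13 ± 0.33), *Ccne2* (0.21 ± 0.27) and *Cdk2* (0.08 ± 0.10). Over the 20 G1/S genes the median was -0.10, with 13 below 0, and without *Cxcl12* control 1 it was 0.01, with 9 below 0. The summed leukocyte and injured tubule markers were higher in all 5 *Cxcl12* KO kidneys than in all controls, although single markers differed: *Adgre1* (-0.42) and *Cd68* (-0.07) had log2 fold changes below 0, and *Havcr1* was at 211 to 986 CPM in the KO kidneys and 549 to 668 CPM in the controls. Their part in these values was not tested.

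**Figure D4:**
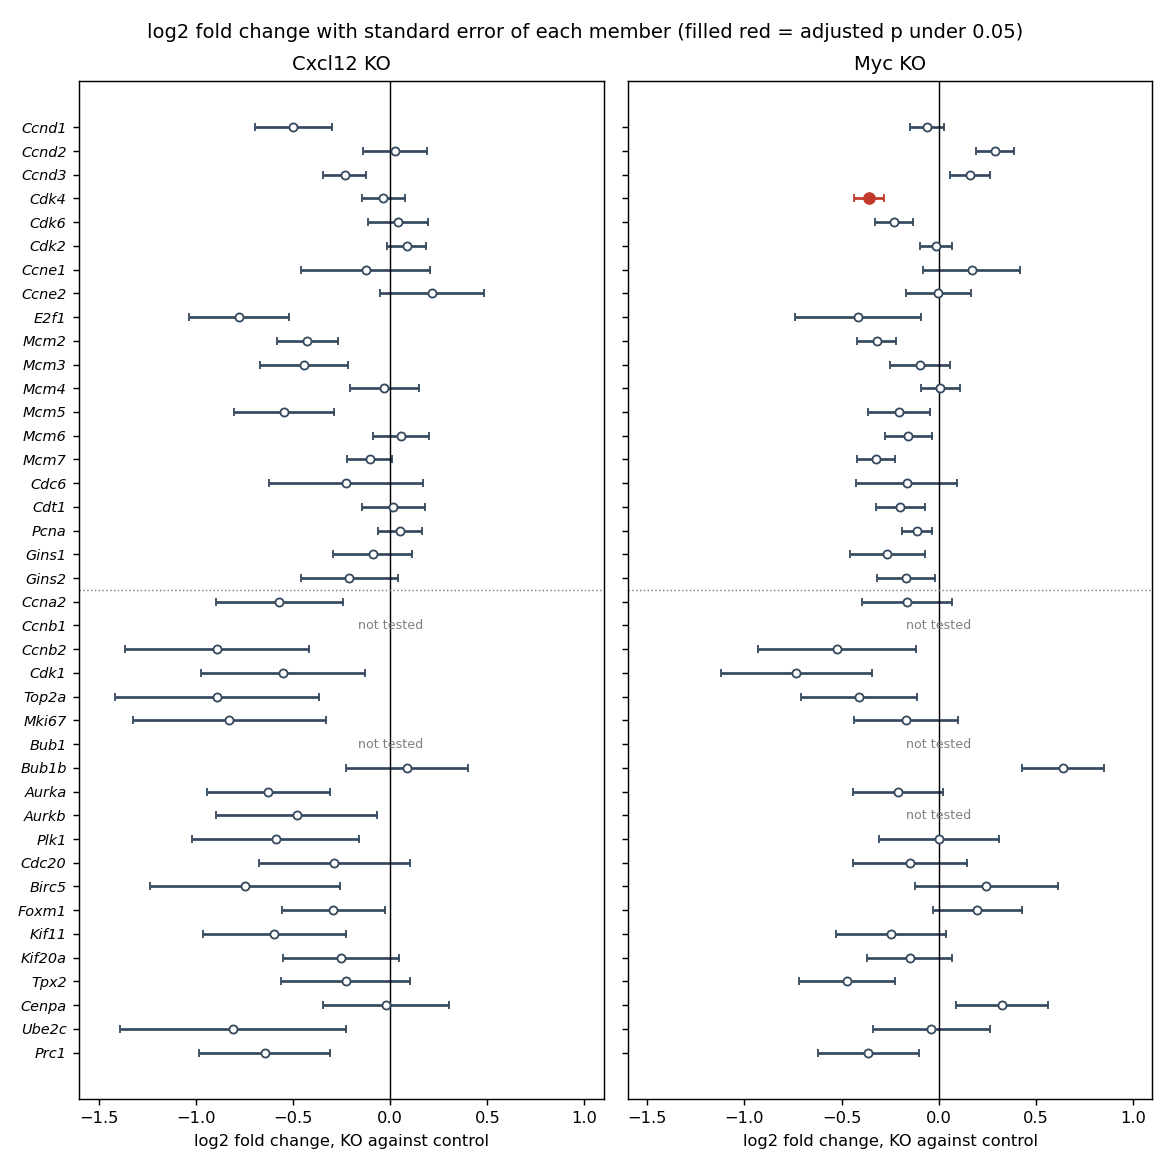
The log2 fold change of each cell cycle gene with its standard error in *Cxcl12* KO (left) and *Myc* KO (right) against control kidneys, with G1/S genes above the dotted line and G2/M genes below it. A filled red point marks an adjusted p under 0.05 and is seen at *Cdk4* in *Myc* KO alone, while most G2/M points of the left panel lie below 0 with errors of 0.26 to 0.58.

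The KO effects of the cohorts did not differ detectably for any cell cycle gene. In a fit over all 18 kidneys, edgeR's test of the difference called 0 of 38 genes, against 0.0692% of all 15903 genes tested, and 2 of 38 (5.26%) had an unadjusted p under 0.05 against 11.4% of all genes. DESeq2 also called 0 of the 38, against 2.04% of all genes. Those 2 genes were *Cdk4*, whose log2 fold change was lower under *Myc* deletion than under *Cxcl12* deletion at a difference of -0.33 ± 0.13 (SE, edgeR adjusted p = 0.33), and *Ccnd3*, at a difference of 0.39 ± 0.16 (SE, edgeR adjusted p = 0.32). The fall of *Cdk4* is thus called within the *Myc* cohort and not shown to be particular to it. Over the 20 G1/S genes the median log2 fold change was -0.10 in the *Cxcl12* cohort and -0.16 in the *Myc* cohort, with 13 and 16 of 20 below 0 (65.0% and 80.0%, against 49.8% and 50.1% of all genes). It became 0.01 without *Cxcl12* control 1 and -0.075 without *Myc* control 3. The G2/M median was -0.58 in the *Cxcl12* cohort and -0.16 in the *Myc* cohort, and the former turns positive without *Cxcl12* control 1.

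**Figure D5:**
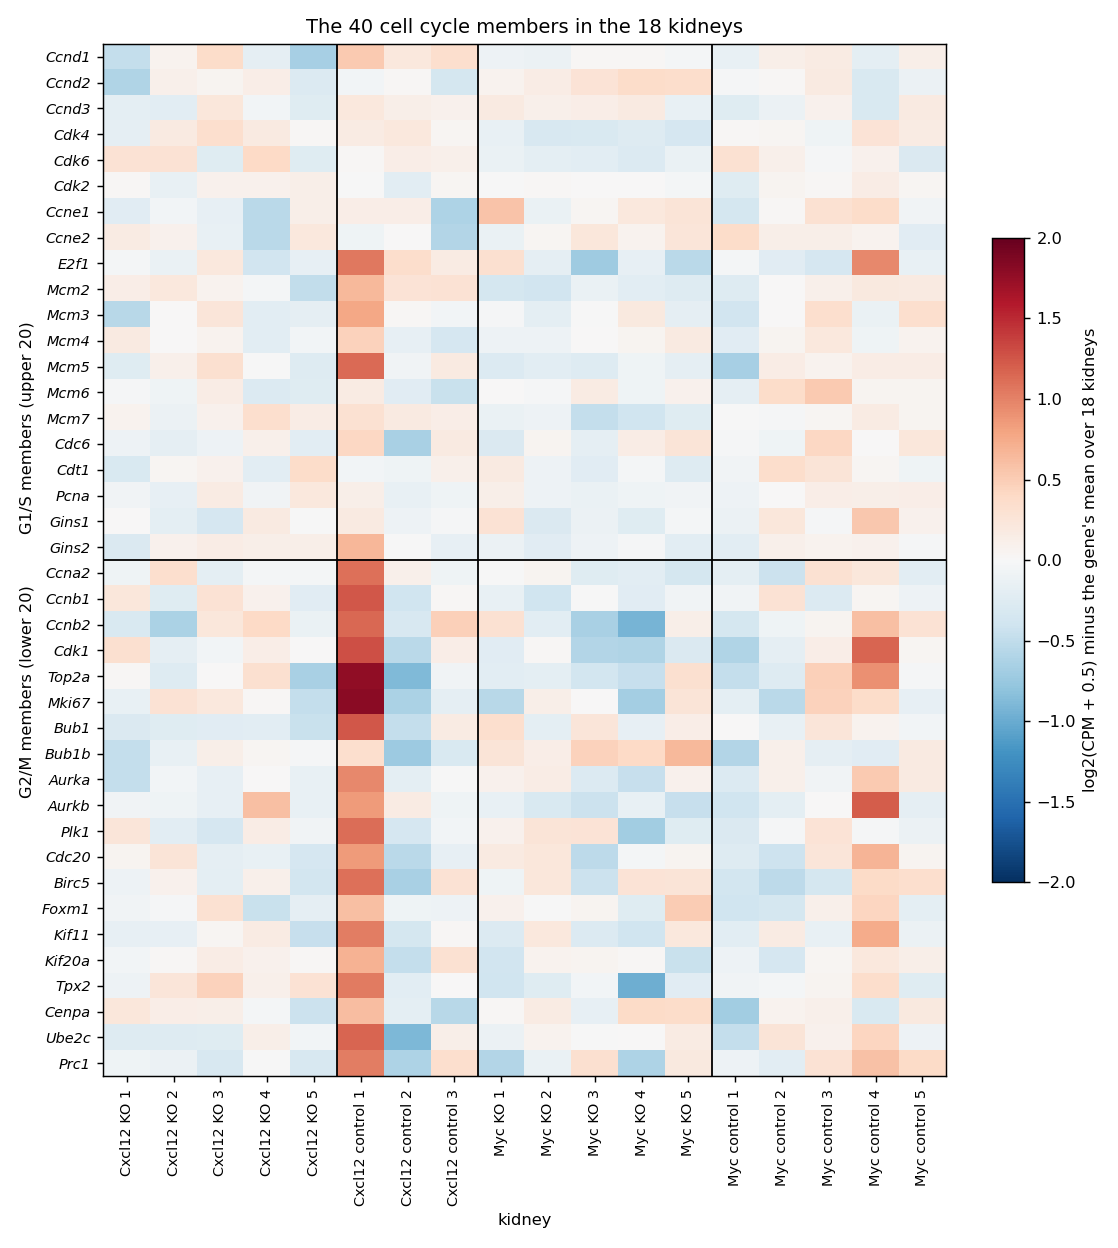
Map of the 40 cell cycle genes (rows, G1/S above and G2/M below the line) in the 18 kidneys (columns), coloured by log2(CPM + 0.5) minus the mean of that gene over the 18 kidneys. The column of *Cxcl12* control 1 is raised over all 20 G2/M rows, and *Myc* control 4 is highest of its cohort in 12 of them.

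Genes of the same pathways outside the 40 were not called by edgeR with all kidneys of a cohort. In the *Cxcl12* cohort 0% of all genes were called and 13.0% had an unadjusted p under 0.05, and in the *Myc* cohort 1.65% and 21.9%. Among 10 CDK inhibitors and pocket proteins, which hold the cycle back, edgeR called 0 of 9 tested in either cohort, with 1 and 0 at an unadjusted p under 0.05 in the *Cxcl12* and the *Myc* cohort. The log2 fold change was below 0 for 1 of 9 in the *Myc* cohort and 3 of 9 in the *Cxcl12* cohort, against 50.1% and 49.8% of all genes. Of 18 other E2F and CDK partner genes, 0 of 16 tested were called in either cohort (1 and 4 unadjusted), and of 30 other S phase genes, 0 of 30 (4 and 5 unadjusted). Of 40 other mitosis genes, the *Cxcl12* fit called 0 of 31 tested and the *Myc* fit 0 of 29 (3 unadjusted in each). DESeq2 called *Cdk7*, the CDK-activating kinase (-0.24, adjusted p = 0.039), and *Mad2l1*, a spindle checkpoint protein (-0.54, adjusted p = 0.045), in the *Myc* cohort, where it called 7.57% of all genes, and no other gene of these lists. For *Myc* deletion *Mad2l1* was also called by edgeR in the fit over all 18 kidneys (-0.55, adjusted p = 0.046), which called 683 of all 15903 genes. *Kif23*, a motor of cytokinesis, was called without *Myc* control 3 (0.80, edgeR adjusted p = 0.038, against 0.62 and 0.13 with it). The fit without that kidney called 877 of all 15108 genes, against 246 of 14936 with all 10 kidneys of the cohort. The mitosis genes followed the G2/M genes across kidneys: 28 of the 40 were highest of their cohort in *Cxcl12* control 1 and 18 of the 40 in *Myc* control 4. Of the 30 S phase genes, 14 and 6 were highest in these kidneys, and of the 10 CDK inhibitors and pocket proteins, 3 and 2. Over all genes tested, 12.7% were highest of their cohort in *Cxcl12* control 1 and 21.5% in *Myc* control 4. The counts from the lists also include genes that the filter on low counts left out, which these shares do not.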

How the data were processed

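The deposited files hold whole-number counts of reads on each gene, 1 file a kidney, which the authors made without normalization, per the labels with Trimmomatic 0.32 and STAR 2.4.0 on GRCm38 (annotation release not given in the sources used here). The column that ignores the strand was used for 45706 genes. Symbols, positions and exon lengths came from GENCODE on GRCm38. The study's own methods used limma-voom and ComBat with an unnamed batch. Here low counts were removed per cohort by filterByExpr, libraries were scaled by TMM, and the quasi-likelihood test of edgeR 4.0.16 (R 4.3.3) was run with Benjamini-Hochberg adjustment over all genes and a threshold of 0.05. The difference between the KO effects was fitted over all 18 kidneys. A standard error is the log2 fold change divided by the square root of F. Alternatives used DESeq2 1.42.0, limma 3.58.1, another normalization, no filter, a replicate block, the mapping groups and leaving out each kidney. The code was tested on simulated data. Figures used matplotlib 3.10.9. CPM values rest on 12918220 to 29749500 counts per kidney, and the p-values measure the spread between mice. No 2 files of a group agreed within sampling noise (33 pairs), so each kidney counts once.

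The 40 genes, the pathway and marker lists and the tests were chosen with earlier results of these data known. All 40 genes are named. Values in every kidney of the cohort concerned are given for called genes and for those with the smallest p in that cohort. This was done until 8 genes had them for *Myc* deletion and 4 for *Cxcl12* deletion. Other genes singled out are said to be chosen after their values were seen.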

Additional observations from a re-analysis of the deposited data

Results flagged for a closer look

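Of 120 comparisons of 1 kidney with the 4 others of its group, over 40 genes in the 3 groups of 5, 10 stood far from the rest by Dixon's criterion, where chance flags about 1 in 20 groups, or 6. The *Cxcl12* control group of 3 was not tested in this way. *Myc* control 4 was high for *E2f1* at 5.60 CPM (others 1.96 to 2.54), for *Cdk1* at 3.94 CPM (others 0.81 to 1.66) and for *Aurkb*, the kinase of the chromosomal passenger complex, at 2.22 CPM (others 0.385 to 0.677). *Myc* control 1 was low for *Mcm5*, a helicase subunit, at 5.24 CPM (others 9.11 to 9.63). *Myc* KO 5 was low for *Ccnd3* at 46.9 CPM (others 55.8 to 59.1) and high for *Top2a* at 4.01 CPM (others 2.11 to 2.65). *Myc* KO 1 was high for *Pcna* at 37.1 CPM (others 31.1 to 32.4). Among *Cxcl12* KO kidneys, replicate 1 was low for *Gins2*, a GINS subunit, at 1.98 CPM (others 2.73 to 2.88), replicate 2 was high for *Ccna2*, the S and G2 cyclin, at 2.24 CPM (others 1.40 to 1.61), and replicate 4 was high for *Aurkb* at 1.28 CPM (others 0.545 to 0.616).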

How the results depend on the processing

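The number of cell cycle genes called stayed at 0 in the *Cxcl12* cohort and for the difference between the KO effects under every alternative run. In the *Myc* cohort it was 1, and 3 with DESeq2, 0 without the filter, 0 among kidneys with at least 5% unmapped reads, 0 among those with less (2 KO and 2 control kidneys, an alternative chosen after seeing the data), and 0 to 2 without 1 kidney at a time. Counts over all genes moved more. In the *Cxcl12* cohort 353 genes were called with DESeq2, 25 in a fit over all 18 kidneys, 80 among kidneys with at least 5% unmapped reads, 214 without the filter, 123 with a term for the mapping group, and 0 to 15 without 1 kidney. In the *Myc* cohort the 246 became 1131 with DESeq2, 683 over all 18 kidneys, 8 among kidneys with at least 5% unmapped reads, 954 with the mapping term, 0 among the 4 kidneys with less than 5% unmapped reads, and 21 to 877 without 1 kidney (*Myc* KO 2 and *Myc* control 3). For the difference the 11 became 324 with DESeq2, 44 among kidneys with at least 5% unmapped reads, 3 with limma-voom, 133 with the mapping term, and 1 to 75 without 1 kidney. The cause was not tested.

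Medians without 1 kidney ranged from -0.134 to 0.01 for G1/S and -0.891 to 0.176 for G2/M genes in the *Cxcl12* cohort, and from -0.212 to -0.075 and -0.236 to -0.06 in the *Myc* cohort. The *Myc* G2/M median was 0.021 among the 4 kidneys with less than 5% unmapped reads, where *Prc1* was at 0.171. In the *Cxcl12* cohort small log2 fold changes changed sign: *Cdk4* to 0.025 and *Cdk6* to -0.094 among kidneys with at least 5% unmapped reads, *Cdk4* to 0.031 and *Cdk6* to -0.087 with the mapping term, and *Ccnd2* to -0.003 with limma-voom. Without 1 kidney at a time *Cdk4* ranged from -0.095 to 0.031, *Ccnd2* from -0.083 to 0.128, *Cdk6* from -0.033 to 0.117, *Bub1b* from -0.186 to 0.524, *Tpx2* from -0.503 to 0.379, *Cdk1* from -0.947 to 0.302, *Top2a* from -1.343 to 0.412 and *Mki67* from -1.247 to 0.458.

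The labels do not say what a replicate number shared by KO and control kidneys means. Deviations of same-numbered kidneys correlated at -0.05 to 0.18 (mean 0.08) in 3 *Cxcl12* pairs and at -0.17 to 0.33 (mean 0.06) in 5 *Myc* pairs, over 0.1 in 2 of each. Pairs with different numbers correlated at -0.18 to 0.22 in the *Cxcl12* cohort (mean -0.02, over 0.1 in 1 of 12). In the *Myc* cohort they were at -0.52 to 0.42 (mean -0.01, over 0.1 in 9 of 20). Whether the number marks a pairing was not tested further. With the number as a replicate block, 0 genes were called in the *Cxcl12* cohort, 18 in the *Myc* cohort (0 cell cycle genes) and 1 for the difference, and *Ccnd2* was at -0.024 in the *Cxcl12* cohort. Few reads were counted for G2/M genes, and 3 controls limit the *Cxcl12* comparison.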
